A study of Mus musculus with 7 samples.

Results

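Fos peaks were described around 6 genes, Nell2, Atxn1, Ankrd12, Slc4a7, Map3k21 and Klhl2, out of 21887 protein-coding genes of the RefSeq table. They are the genes at, or nearest to, regions of highest enrichment in chromatin immunoprecipitation sequencing (ChIP-seq) with an antibody against Fos. The members were chosen by the deposited fold, which is the height of a peak over its local background within 1 library, ranked in the 3 kainic acid lists. Their high ranks are therefore a description and carry no test.

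The libraries came from the hippocampus of wild-type C57BL/6J mice aged 2 months, with 3 libraries after saline (PBS) and 3 after kainic acid. Kainic acid excites neurons through glutamate receptors and causes seizures, and it was given as 2 intraperitoneal injections of 10 mg/kg, 30 min apart. Mice with level 4 seizures were killed 1 hour after the first injection. The labels also name 1 input library, whose values were not analysed here, and they do not say whether libraries came from separate animals, so the spread between them may be technical.

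Fos pairs with a Jun protein to form the AP-1 transcription factor, which binds DNA at the AP-1 site. Neurons make little Fos at rest and make it rapidly after strong activity. In many cell types AP-1 is found mostly at enhancers, which can lie far from the start of any gene. A peak in a gene or near it does not show that the gene is controlled from there.

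The 6 lists held 7, 3277 and 2 peaks for saline replicates 1, 2 and 3, and 15009, 63197 and 29650 peaks for kainic acid replicates 1, 2 and 3. The unequal lengths bear on every count of support, because kainic acid replicate 2 alone can call a weak region far more often than replicate 1. The number of reads over a summit (pileup) was solved from the fold and −log10 p. Its lowest value was 12, 9 and 13 reads in kainic acid replicates 1, 2 and 3, and 12, 11 and 17 reads for saline. Those are the least signals that were called, so a region missing from a list was not called there and may still have been bound. Neither folds nor pileups are scaled between libraries.

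The rank order was checked first. By mean rank of fold over the 3 kainic acid lists, the regions of order 1, 2, 3, 4, 6 and 8 among all regions present in the 3 lists had Nell2, Atxn1, Ankrd12, Slc4a7, Map3k21 and Klhl2 as the gene they lie in or the nearest protein-coding gene. The label thus held for these 6, but they are not the first 6 in an unbroken order. The order depends on the measure. Ranked by pileup, the mean ranks of Nell2, Atxn1, Ankrd12, Slc4a7, Map3k21 and Klhl2 were 5.33, 3.33, 4.33, 9.33, 11.7 and 12.3, and ranked by −log10 q they were 2.33, 1, 2.67, 5, 7 and 10.3. The region of order 7 lay 1190024 bp from the nearest protein-coding gene, Cdh2. Just inside the members, the Klhl2 region had ranks of 28, 21 and 6 in kainic acid replicates 1, 2 and 3, a mean of 18.3. Just outside, the region inside Glis3, a zinc finger transcription factor, had ranks of 17, 9 and 31, a mean of 19. The next regions near a gene were those of Slc28a3, a nucleoside transporter (mean rank 21.3), Slc9a9, a sodium/proton exchanger (21.7), and Lrp11, a member of the LDL receptor-related family (23).

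Around each gene, every peak within 100 kb of the gene span was collected, and peaks of the 6 lists that overlapped by at least 1 bp were merged into regions. The 6 windows held 241 regions: 239 with a kainic acid peak and 2 with a saline peak alone. Of the 239, 56 were in all 3 kainic acid lists (23.4%), against 17.9% of all merged regions with a kainic acid peak in the genome. Leaving out the 6 leading regions, which had to be in 3 lists to be ranked, it was 50 of 233 (21.5%). Regions in at least 2 lists were 103 of 239 (43.1%), beside 40.3% of all merged regions. The other 136 were in 1 list, and 119 of those 136 were called in kainic acid replicate 2. Without that library the number of regions with a kainic acid peak was 123.

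The windows differed widely in how many regions they held. Atxn1 had 86 regions with a kainic acid peak, Nell2 52, Klhl2 45, Map3k21 32, Ankrd12 13 and Slc4a7 11. The median of the 6 was 38.5 regions, beside a median of 7 over all protein-coding genes measured in the same way. Long genes have longer windows, so density was compared too. Per 100 kb of window it was 14.5 regions for Klhl2, 14 for Atxn1, 13.5 for Map3k21, 10.2 for Nell2, 4.15 for Ankrd12 and 3.70 for Slc4a7, beside a median of 2.88 over all protein-coding genes. The first 4 windows thus held more regions per length than those of Ankrd12 and Slc4a7, which were closer to the median. Without kainic acid replicate 2 the order among the first 4 turned, with 5.80 for Klhl2, 6.83 for Atxn1, 7.17 for Map3k21 and 6.87 for Nell2, and with 1.60 for Ankrd12 and 2.02 for Slc4a7. No test was made of this, since the genes were picked from the same lists.

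**Figure D1:**
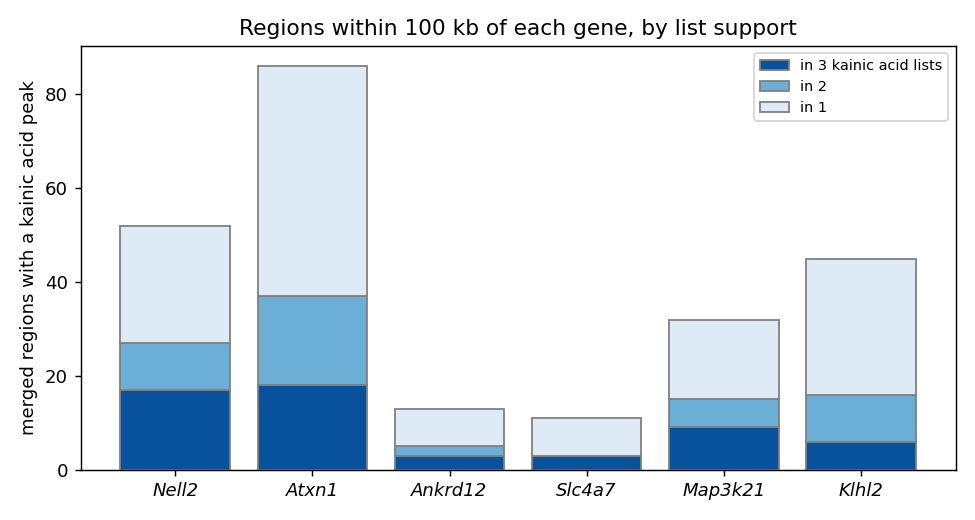
Number of merged regions with a kainic acid peak within 100 kb of each gene (y axis), stacked by the number of kainic acid lists that hold a peak there. Atxn1 has 86 and Slc4a7 has 11, and regions in a single list are the largest class in each of the 6 windows.

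Each locus held 1 site that stood above its neighbours in fold, by as little as 2.12 times at Slc4a7 in kainic acid replicate 1. A locus was said to have 1 dominant site where the fold of its leading region was at least 2 times that of the next highest region in each of the 3 kainic acid lists. All 6 loci met this. Over all genes, 209 of 8319 with a ratio in the 3 lists did (2.51%), and nothing is read from the contrast because the same folds chose the members. The mean ratio of leading to next fold was 8.49 ± 1.07 (SD, n = 3 lists) for Ankrd12, 5.86 ± 1.26 for Atxn1, 3.64 ± 0.215 for Map3k21, 3.53 ± 0.915 for Nell2, 3.44 ± 0.544 for Klhl2 and 2.75 ± 0.996 for Slc4a7. Any pair of the last 4 means differed by less than the larger of its SDs, so their order is not resolved. With a ratio of 3 in place of 2, Atxn1, Ankrd12 and Map3k21 still met it, which makes 3 loci.

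**Figure D2:**
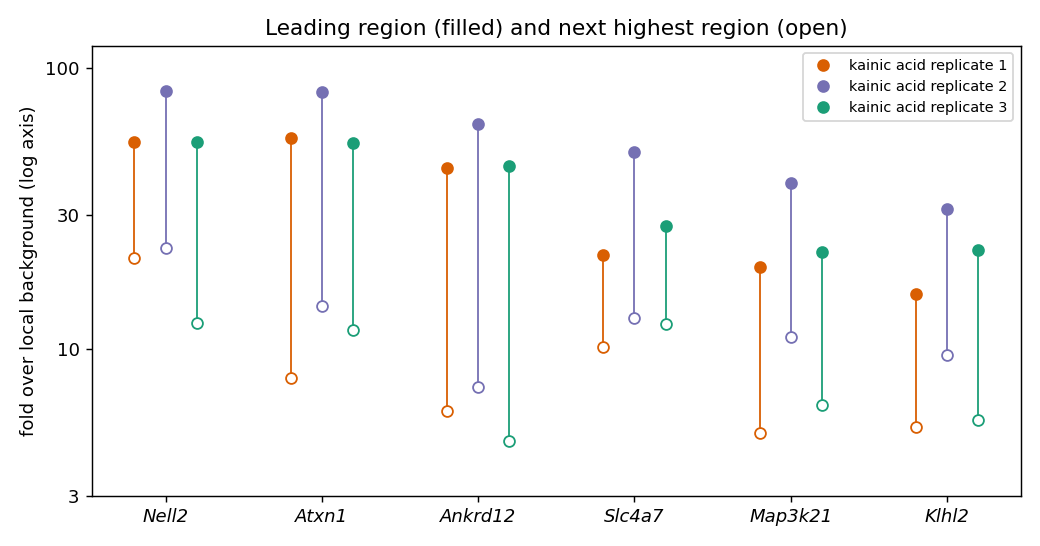
Deposited fold (y axis, log scale) of the leading region (filled points) and of the next highest region within 100 kb (open points) at each gene, with 1 line for each kainic acid list. Each filled point stands at least 2.12 times above its open partner, and the gap is widest at Ankrd12 and narrowest at Slc4a7 in replicate 1.

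**Figure D3:**
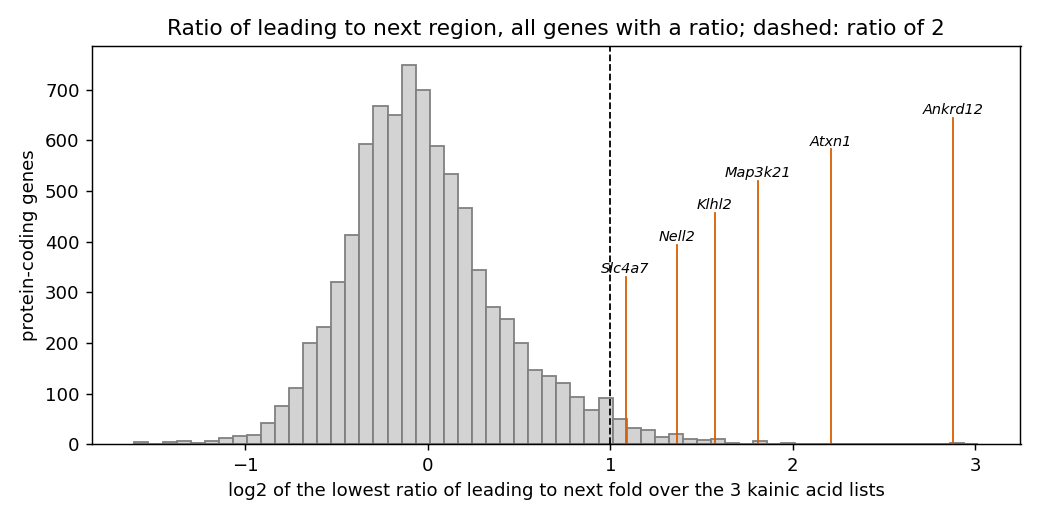
Histogram of the lowest ratio of leading to next fold over the 3 kainic acid lists (x axis, log2) for the 8319 protein-coding genes that have one (y axis, number of genes), with orange lines at the 6 members. The members run from 2.12 for Slc4a7 to 7.35 for Ankrd12, to the right of the dashed line at a ratio of 2, while the median of all genes is 0.957.

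The places of the leading sites differed. Those of Nell2, Atxn1 and Klhl2 lay inside the gene span, and those of Ankrd12, Map3k21 and Slc4a7 lay outside it, by 3.01, 11.4 and 69.0 kb. The gene table has no exons, so whether the inside sites are exonic or intronic was not determined. The promoter table gives a direction for 4 of the 6 genes, all but Nell2 and Atxn1. From the start in that promoter table, the median summit of the leading region was 7.77 kb away for Klhl2, 49.1 kb for Map3k21, 85.6 kb for Slc4a7 and 115 kb for Ankrd12. For Slc4a7 that start, 14718784, lies inside the gene span, which begins at 14703011, so this distance is longer than the 69.0 kb to the span. In Klhl2 it lay downstream of the start within the gene, at Map3k21 and Ankrd12 beyond the far end of the gene, and at Slc4a7 upstream.

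The position of each leading site was closely repeated. The main summits of the 3 kainic acid lists lay within 39 bp of each other at Nell2, 43 bp at Map3k21, 46 bp at Klhl2, 53 bp at Ankrd12, 54 bp at Slc4a7 and 57 bp at Atxn1. The peaks holding them were 760 to 1959 bp wide, beside median widths of 365, 382 and 473 bp in kainic acid lists 1, 2 and 3. Summits of other regions were not compared as a set, and close summits are not particular to the leading sites. At a weak Klhl2 region, 64843072 to 64843764, they lay at 64843465, 64843452 and 64843458 in kainic acid replicates 1, 2 and 3.

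Promoter sequence was compared with the lists next, since a peak lies over the start of 1 of the 4 members that have a start in the promoter table. The starts of Nell2 and Atxn1 could not be assessed. RefSeq promoters of the assembly GRCm38.p6, which run from 250 bases before to 50 after the start, were found for Ankrd12, Slc4a7, Map3k21 and Klhl2. Only that of Klhl2 was overlapped by a peak. The nearest kainic acid region was 520 bp away from the Ankrd12 promoter, 1093 bp from that of Map3k21 and 5866 bp from that of Slc4a7. Those near Ankrd12 and Map3k21 were in kainic acid replicate 2 alone, and that near Slc4a7 was in replicate 1 alone. The Ankrd12 start, 66077046, lies inside its gene span, which ends at 66078804. The Slc4a7 promoter used here belongs to a start inside the gene span. Near the lower end of that span, a region of kainic acid replicate 2 alone lay at 14703715 to 14704033 (fold 3.56). The Klhl2 promoter is printed below because kainic acid and saline peaks meet in it. It spans chr8:64849875-64850174 on the minus strand, it reads 5′ to 3′, and capitals mark the 59 bases under the peak of kainic acid replicate 3.
Klhl2: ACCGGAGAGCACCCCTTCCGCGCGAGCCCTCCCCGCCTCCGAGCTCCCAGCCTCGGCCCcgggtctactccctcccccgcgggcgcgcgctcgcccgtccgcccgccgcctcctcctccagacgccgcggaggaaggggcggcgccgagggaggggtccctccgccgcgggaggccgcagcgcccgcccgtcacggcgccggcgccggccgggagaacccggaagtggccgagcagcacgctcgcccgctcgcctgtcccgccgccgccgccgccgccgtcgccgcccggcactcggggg

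Kainic acid replicate 2 covered the whole of this promoter (peak 64849839 to 64850592, fold 6.85, 40 reads over the summit). Replicate 3 covered its upstream end (64850116 to 64850400, fold 3.34, 28 reads), and replicate 1 had no peak here. Saline replicate 2 covered 154 bases at the downstream end (64849751 to 64850028, fold 5.11, 26 reads), with its summit 43 bp from the start. The summits of kainic acid replicates 2 and 3 lay 312 and 258 bp from the start, both upstream. The saline peak and that of kainic acid replicate 3 do not touch, and only the wide peak of replicate 2 joins them into 1 region. G and C made up 82.7% of the 300 bases. The AP-1 site, searched as TGANTCA on both strands (it is its own reverse complement), was in none of the 4 promoters, and it is in 7.81% of the 32851 promoters of that table. The cyclic AMP response element TGACGTCA was also in none of the 4, and in 1.79% of all promoters. Only the Klhl2 promoter had a peak, and the summits of kainic acid replicates 2 and 3 lay outside its 300 bases. The sequences of the leading regions were not searched, so whether they hold either site is unknown.

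**Figure D4:**
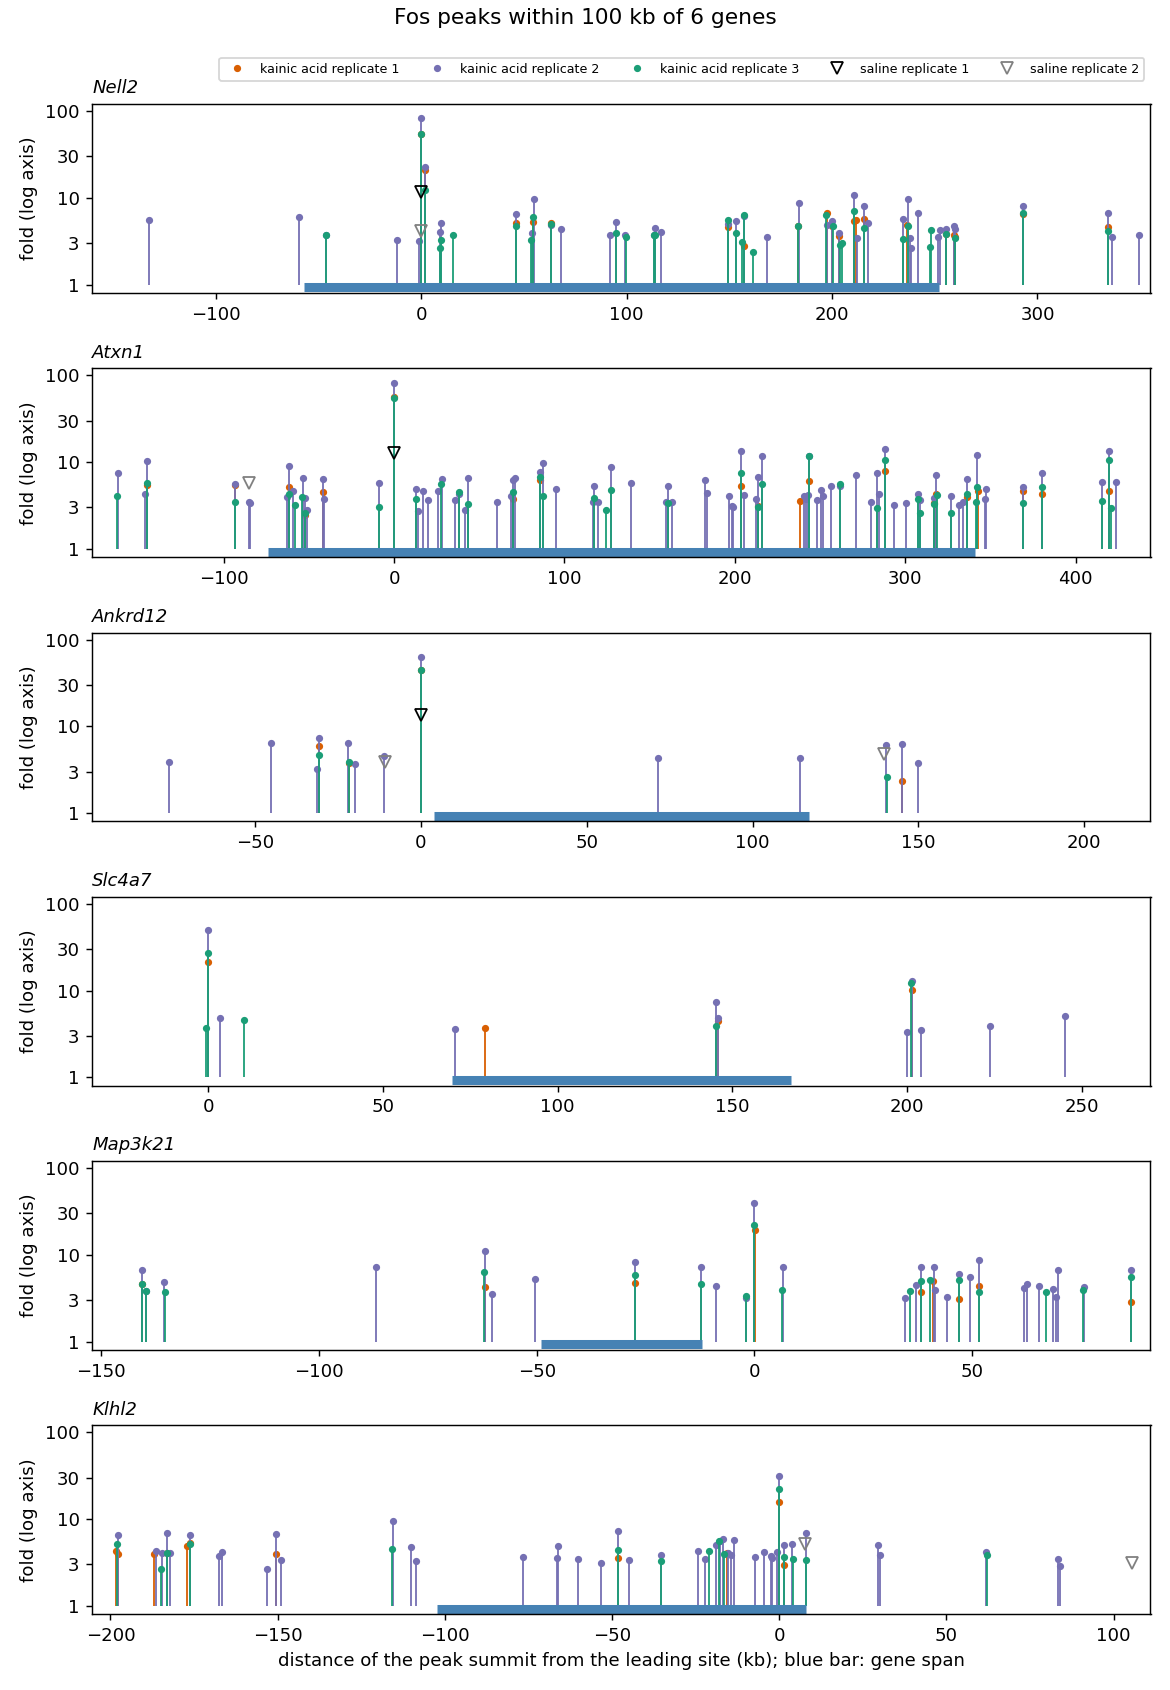
Fos peaks within 100 kb of each gene, with the distance of the summit from the leading site (x axis, kb) against the deposited fold (y axis, log scale). Colours mark the 3 kainic acid lists, triangles mark saline peaks and the blue bar is the gene span, and each panel shows 1 tall site over a field of peaks mostly between 3 and 10.

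Nell2 codes for a secreted glycoprotein with EGF-like repeats that is made mainly in neurons and acts in axon guidance. The gene spans chromosome 15 from 95219440 to 95528796, 309 kb. Its leading region, 95275949 to 95277575, lies 57.3 kb inside the lower end of the span. The fold there was 54.5, 82.6 and 54.4 in kainic acid replicates 1, 2 and 3, with 226, 305 and 273 reads over the summit. It ranked 2, 1 and 1 in those lists. Saline replicates 1 and 2 had a peak in it as well, with folds of 11.7 and 4.18 from 19 and 15 reads. In saline replicate 2 the peak stood near the middle of the list, at rank 1612 of 3277.

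A companion region followed closely at Nell2. It ran from 95278103 to 95279173 and began 528 bp past the end of the leading region. Its folds were 21.1, 22.9 and 12.4, and its ranks were 6, 103 and 183. It was the next highest region of the window in each of the 3 lists, and no saline list had a peak in it. In replicate 1 it stood closest to the leading region, at a ratio of 2.58, against 3.60 and 4.40 in replicates 2 and 3.

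The other regions of the Nell2 window were far weaker. In order of mean rank, the next was 95486792 to 95489132, inside the gene, with folds of 5.58, 10.7 and 7.02. A region outside, 95569233 to 95570484, had 6.52, 8.10 and 6.75. Inside again, 95330811 to 95331729 had 5.28, 9.72 and 5.96, and 95513314 to 95513934 had 4.89, 9.72 and 4.78. These 4 sites lay 53236 to 291658 bp from the leading one. The region closest to it, 95275361 to 95275587, 362 bp before its start, was in replicate 2 alone with a fold of 3.18. The remaining 11 regions in 3 lists began at 95322548, 95339173, 95425576, 95433438, 95460085, 95473788, 95476327, 95491926, 95531914, 95536319 and 95610879, and 8 of them lay inside the gene. Their folds ran from 2.75 to 6.64, 4.39 to 8.79 and 3.48 to 6.36 in replicates 1, 2 and 3. A further 10 regions were in 2 lists (folds 2.61 to 5.67) and 25 in 1 list (2.35 to 6.75), 18 of the latter in replicate 2. Of the 52 regions, 42 lay inside the gene, which is 13.6 per 100 kb there against 5.00 per 100 kb in the flanks. The Nell2 locus held 1 dominant site, a strong companion beside it and many weak ones.

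Atxn1 codes for ataxin-1, a nuclear protein that acts with the repressor Cic and whose expanded form causes spinocerebellar ataxia. The gene spans chromosome 13 from 45549755 to 45964991, 415 kb, the longest of the 6. The leading region, 45623232 to 45624723, lies 74.2 kb inside its lower end. There the folds were 56.3, 82.6 and 54.2 and the pileups 259, 337 and 303 reads in kainic acid replicates 1, 2 and 3. Its ranks were 1, 2 and 2. Of the saline lists, only that of replicate 1 had a peak in it, with a fold of 12.7 from 22 reads.

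Atxn1 also had the most other regions, and 7 of them reached a fold of 10 in at least 1 list. Highest by mean rank was 45911829 to 45912535, with folds of 7.88, 14.2 and 10.6 (ranks 799, 987 and 402). Next, 45866998 to 45867890 had 6.00, 11.6 and 11.7, and 45827282 to 45828253 had 5.34, 13.6 and 7.5. All 3 lie inside the gene, 202559 to 287106 bp from the leading site. Outside, 46043047 to 46044429 had 4.63, 13.4 and 10.6, and 45478429 to 45479524 had 5.43, 10.2 and 5.74. One region just past the higher end of the gene, 45965260 to 45966775, overlapped the noncoding RNA gene 5033430I15Rik, with 4.59, 12.2 and 5.17. At Atxn1 the second tier was thus made of several distant sites, where Nell2 had a single companion close by.

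The remaining regions in 3 lists at Atxn1 began at 45530618 (inside the neighbour Gmpr), 45561794, 45571483, 45693252, 45709127, 45837469, 45940821, 45942082, 45960225, 45992805 and 46004020. With the one over 5033430I15Rik, these 12 had folds of 2.45 to 6.14, 3.87 to 12.2 and 2.58 to 6.74 in replicates 1, 2 and 3. Another 19 regions were in 2 lists, the highest of them at 45839694 to 45840446 with 11.6 in replicate 2 and 5.56 in replicate 3. Of 49 regions in 1 list, 45 were called in replicate 2. Inside the gene there were 72 of the 86 regions, 17.3 per 100 kb, against 7 per 100 kb in the flanks. Saline replicate 2 had 1 peak in the window, at 45538882 to 45539415 inside Gmpr (fold 5.71). Of the kainic acid lists, only that of replicate 2 had peaks there, a pair with folds of 3.49 and 3.35. Atxn1 thus combined 1 dominant site with the largest number of weaker regions, in the longest of the 6 windows. Without kainic acid replicate 2 it held 42 regions, beside 35 at Nell2. Density was then 7.71 per 100 kb inside Atxn1 and 6.83 over its whole window.

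Ankrd12 codes for an ankyrin-repeat protein of the nucleus that binds nuclear receptor coactivators. It spans chromosome 17 from 65965703 to 66078804, 113 kb, and is read from the minus strand. The leading region, 65960733 to 65962691, lies 3.01 kb beyond the end of the gene, and Twsg1, a modulator of BMP signalling, is 9.55 kb away on its other side. Folds were 44.1, 63.5 and 44.7 and pileups 236, 326 and 298 reads in kainic acid replicates 1, 2 and 3, and the rank was 3 in each list. Saline replicate 1 had a peak in it with a fold of 13.6 from 25 reads, the highest fold of that list.

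Around Ankrd12 the other regions were weak, with no fold above 7.34. Its 4.15 regions per 100 kb were above the median of 2.88 over all protein-coding genes, of which 64.9% had a lower density. Without kainic acid replicate 2 the density was 1.60, and no median was taken without that list. The window had 13 regions with a kainic acid peak, and the gene itself, over 113 kb, had 2 of them, both in replicate 2 only. Besides the leading region, 2 were in all 3 lists, and both lay inside Twsg1. The first, 65930973 to 65931825, had folds of 6.00, 7.34 and 4.72, and the second, 65939533 to 65940445, had 3.78, 6.41 and 3.92. Beyond the start, 66101847 to 66102555 and 66106470 to 66106858 were in 2 lists, with highest folds of 6.17 and 6.21. The 8 regions in 1 list were all in replicate 2 (3.24 to 6.48). Saline replicate 2 had 2 peaks here. One was inside Twsg1, 65950898 to 65951142 (fold 3.91), in a region that kainic acid replicate 2 shared (4.55). The other, 66101445 to 66101715, over the higher end of Ndufv2, a respiratory chain gene, had no kainic acid peak (4.77).

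Slc4a7 codes for an electroneutral sodium bicarbonate cotransporter that brings bicarbonate into the cell. Its span is chromosome 14 from 14703011 to 14799944, 96.9 kb, on the plus strand. The leading region, 14632198 to 14633975, is intergenic and 69.0 kb before the gene, so its link to Slc4a7 is by distance alone. Folds were 21.6, 50.1 and 27.4 from 96, 187 and 146 reads, and ranks were 5, 4 and 4 in kainic acid replicates 1, 2 and 3. No saline list had a peak in the window. In replicate 3 a smaller second peak, 14632198 to 14632585 (fold 3.73), belongs to the same merged region and sets its lower end.

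The Slc4a7 window held 11 regions, the fewest of the 6, and none in exactly 2 lists. Without kainic acid replicate 2 it held 6 and the Ankrd12 window 5. Its second site, 14834223 to 14835458, lies on the far side of the gene inside Nek10, which codes for a protein kinase. That site had folds of 10.2, 12.8 and 12.2 and ranks of 239, 1445 and 197. In replicates 1 and 3 it came within ratios of 2.12 and 2.24 of the leading region, and in replicate 2 the ratio was 3.90. Inside the gene, 14778262 to 14779424 was the single region in 3 lists, with 4.46, 7.32 and 3.88. The other 8 were in 1 list each, with folds of 3.36 to 5.13. With windows of 50 kb the leading region drops out, and the ratio at this gene was 1.75. Slc4a7 therefore had 1 dominant and 1 secondary site on opposite sides of the gene, and its other regions had folds of at most 7.32. Its regions were few among the 6 windows. At 3.70 per 100 kb they were above the median of 2.88 over all protein-coding genes, of which 59.9% had a lower density. Without kainic acid replicate 2 the density was 2.02, and no median was taken without that list.

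Map3k21 codes for a mixed-lineage kinase, a class that acts at the top of MAP kinase cascades. It spans chromosome 8 from 125910450 to 125947440, 37.0 kb, on the plus strand. The leading region, 125958837 to 125960049, is intergenic and 11.4 kb beyond the end of the gene. Folds were 19.5, 39.1 and 22.1 from 104, 168 and 124 reads in kainic acid replicates 1, 2 and 3, with ranks of 7, 6 and 7. No saline list had a peak in this window either.

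Most of the other regions in the Map3k21 window lay outside the gene, 30 of 32 with the leading one. Next by mean rank was 125896922 to 125898124, over the higher end of Pcnx2 and the noncoding RNA gene A730098A19Rik, with folds of 4.28, 11.1 and 6.30. The only region in 3 lists inside Map3k21, 125931725 to 125932225, had 4.75, 8.16 and 5.88. Far to the lower side, 125818737 to 125819417, inside Pcnx2, had 4.56, 6.75 and 4.57. The neighbour Kcnk1, a potassium channel gene, held 17 of the 32 regions. Of its 4 regions in 3 lists, 125999659 to 126000779 had 5.03, 7.18 and 5.11, and 125997146 to 125998085 had 3.72, 7.21 and 4.93. The other pair, 126010860 to 126011395 and 126006183 to 126006851, reached at most 8.64 and 6.02, both in replicate 2. One more region, 126045568 to 126046289 past Kcnk1, had 2.88, 6.69 and 5.63. There were 6 regions in 2 lists (3.18 to 7.29) and 17 in 1 list (3.22 to 7.29), 15 of the latter in replicate 2. The ratio of leading to next fold was the most even of the 6 genes over the lists, at 3.89, 3.53 and 3.5.

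Klhl2 codes for a Kelch-like protein that binds actin and brings substrates to a cullin ubiquitin ligase. It spans chromosome 8 from 64739673 to 64850169, 110 kb, on the minus strand. The leading region, 64841096 to 64842669, lies inside the gene. Folds were 15.7, 31.5 and 22.5 from 97, 161 and 128 reads in kainic acid replicates 1, 2 and 3. Ranks were 28, 21 and 6, which is the widest spread among the 6 leading regions. In replicate 2 a smaller peak, 64841096 to 64841492 (fold 4.15), joins the same region, and no saline list had a peak in it.

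Klhl2 held 25 regions inside the gene, which is 22.6 per 100 kb, against 10.0 per 100 kb in the flanks. Without kainic acid replicate 2 there were 10 inside, 9.05 per 100 kb, beside 9.70 per 100 kb inside Nell2. Only 6 of its 45 regions were in 3 lists (13.3%), and 27 of the 29 in 1 list were called in replicate 2. Besides the leading one, 2 of those in 3 lists were inside Klhl2. The one at 64843072 to 64843764, 403 bp past the leading region, had folds of 2.92, 5.05 and 3.67, and the one at 64793373 to 64794206 had 3.52, 7.38 and 4.42. The remaining 3 were inside Cpe, which codes for carboxypeptidase E, a prohormone-processing enzyme. These were 64664682 to 64666454 (5.28, 6.48 and 5.23), 64643300 to 64644684 (4.27, 6.56 and 5.22) and 64658651 to 64659412 (4.09, 6.90 and 4.07). Of 10 regions in 2 lists, the highest was 64725925 to 64726739 inside Msmo1, a sterol synthesis gene, with 9.51 and 4.48 in replicates 2 and 3. A second saline replicate 2 peak, 64947405 to 64947606 (fold 3.12), lay inside Tmem192 with no kainic acid peak. Unlike Nell2, the region next to the leading one at Klhl2 was weak, and the dominant site sat among many regions called in 1 library.

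Saline and kainic acid were then compared over the 6 windows. Saline replicates 1, 2 and 3 had 3, 6 and 0 peaks there, and kainic acid replicates 1, 2 and 3 had 68, 226 and 115. On the log10 scale, with 1 added to each count, the kainic acid mean was 2.09 ± 0.259 (SD, n = 3). For saline it was 0.48 ± 0.435 (SD, n = 3), which is lower by a difference of 1.60. The windows were chosen from the kainic acid lists and each had to hold a region called in all 3 of them, so the direction was partly fixed by the choice. All 3 kainic acid libraries were above all 3 saline libraries, with p = 0.1 by exact permutation (both sides), and 3 libraries against 3 cannot give less. Without the 6 leading regions the counts were 0, 5 and 0 against 62, 219 and 108, a difference of 1.80 with the same exact p = 0.1. That is no separate support, because the windows are still those chosen from the kainic acid lists. Saline lists 1 and 3 also hold only 7 and 2 peaks in all, so the groups are already set apart by the lengths of their lists. The windows held 0.453%, 0.358% and 0.388% of the peaks of kainic acid lists 1, 2 and 3. For saline they held 3 of 7 peaks (42.9%), 0.183% of 3277 and 0 of 2. Whether the difference at these genes departs from that of the lists as a whole was not tested.

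Of the 239 regions with a kainic acid peak, 6 also had a saline peak (2.51%), against 1.59% of all such regions. These were the leading regions of Nell2, Atxn1 and Ankrd12, and 3 others called in saline replicate 2. Leaving out the 6 leading regions, which were chosen by fold, it was 3 of 233. No excess at these genes is therefore read from the share. Among all regions in 3 kainic acid lists, 2.16% had a saline peak. Saline replicate 1 had 3 peaks in the windows, and each lay on 1 of those 3 leading regions. Over all regions in 3 kainic acid lists, 5 of 11937 had a peak of saline replicate 1 (0.0419%). Its summits lay 39, 38 and 64 bp from the median kainic acid summit at Nell2, Atxn1 and Ankrd12. With 19, 22 and 25 reads these saline peaks were above the lowest pileup in that list, 12 reads. The kainic acid pileups at the same sites ran from 226 to 337 reads. At Slc4a7, Map3k21 and Klhl2 they ran from 96 to 187 reads and no saline peak was called. The leading sites were picked for their kainic acid folds and the pileups are not scaled to depth, so no comparison of the groups was drawn from these values.

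**Figure D5:**
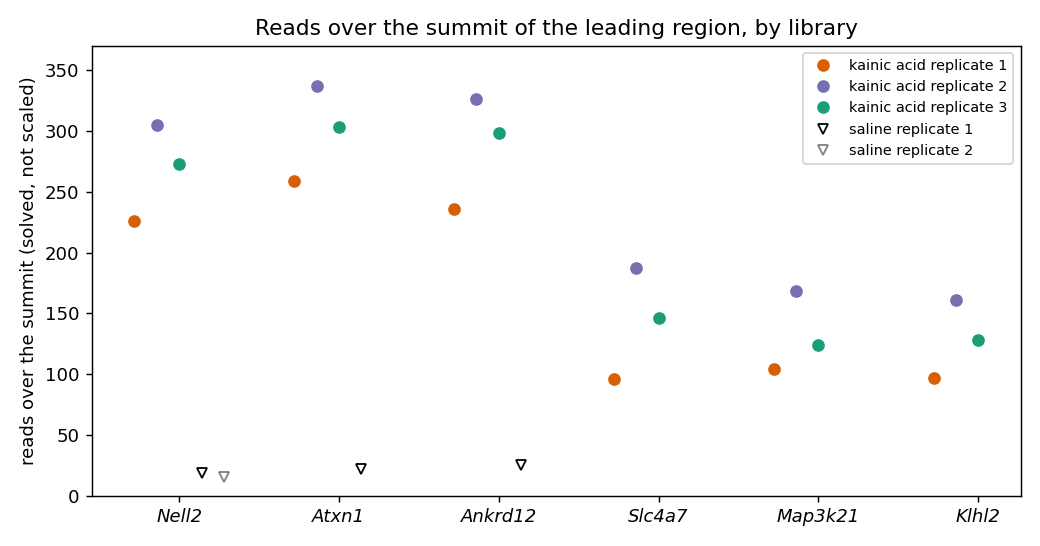
Reads over the summit of the leading region (y axis, solved from fold and −log10 p, not scaled for depth) at each gene, with filled points for the 3 kainic acid libraries and open triangles for saline replicates 1 and 2 where a peak was called. Kainic acid values are 226 to 337 at Nell2, Atxn1 and Ankrd12 and 96 to 187 at the other 3 genes, and saline values are 15 to 25.

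Relatives and partners of the 6 genes were looked at in the same way. The list held 18 genes: Nell1, Atxn1l, Cic, Ankrd11, 4 other sodium bicarbonate transporters, 5 other mixed-lineage kinases, 4 other Kelch-like genes and Cul3, the cullin that Kelch-like proteins bind. A region in all 3 kainic acid lists lay within 100 kb of 16 of the 18 (88.9%), against 57.9% of all protein-coding genes. Klhl1 and Klhl4 were the exceptions, with 1 region each in fewer lists. The median was 14 regions per window, between the 38.5 of the 6 genes and the 7 of all genes. Long genes have longer windows, and neither this median nor the share above was adjusted for length. No enrichment near the relatives is therefore read from them. Of the 11 with a ratio in the 3 lists, 0 had 1 dominant site, and with 2.51% over all genes this says little about so few. The best leading region was near Map3k13, a kinase of the same class as Map3k21, with folds of 8.96, 22.1 and 14.9 and a mean rank of 211, and it lay 64.2 kb from the gene. That of Cic, the partner of ataxin-1, lay inside the gene with folds of 8.56, 17.2 and 11.0 and a mean rank of 448. Nell1, the paralog of Nell2, had 17 regions, and its leading one had 5.58, 8.91 and 6.36. For Ankrd11, the paralog of Ankrd12, the values were 33 regions and 5.76, 16.7 and 6.54. Among the transporters, Slc4a4 came highest with 8.30, 13.1 and 8.00. The lowest mean rank among the 18 was thus 211, beside 1.33 to 18.3 for the 6 genes, which had been chosen by it.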

How the data were processed

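Fos ChIP-seq peak lists of 3 saline and 3 kainic acid libraries of mouse hippocampus were used, 1 list for each library and none pooled. Per the submitters' processing notes, the tools were Trim Galore 0.6.4, Bowtie2 2.3.4.3, MACS2 and deepTools 3.5.0 and the build was mm10, which is GRCm38. Per the labels in the peak names, alignments were filtered at a mapping quality of 30. The control and the cutoff of the peak calling are not given in the sources used here. The deposited fold is a linear ratio within 1 library. The deposited −log10 p-value and −log10 q-value are likewise per library but on a log scale, and the deposited score is −log10 q times 10, rounded down.

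Peaks overlapping by at least 1 bp were merged. Ranks are those of the fold within a list, with 1 as the highest, and a merged region takes the highest peak of a list. Windows were the gene spans of the RefSeq table of GRCm38.p6 with 100 kb on each side. Pileup k and background λ were those whose (k + 1)/(λ + 1) equals the fold and whose Poisson upper tail gives the p-value. All 111142 of 111142 peaks were solved with a relative error in −log10 p under 0.001. It rests on that inferred model and is no read total, so depth is otherwise unknown. Solving, merging and ratios were tested on simulated data. Python 3.11.15, numpy 2.4.6, pandas 2.3.3 and scipy 1.17.1 were used.

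The members and lists were chosen with earlier results of these data known. Named genes were the 6 members, genes near their leading regions, 18 relatives and partners, and the genes of the next regions by mean rank, of which 1 is not reported here. Within a window, the regions described singly and the neighbours named were chosen after their values were seen. Alternatives were the q threshold, the window, the merging rule, the list support, the measure, the ratio, each library left out and the replicate block.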

Additional observations from a re-analysis of the deposited data

How the results depend on the processing

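The number of regions with a kainic acid peak in the 6 windows, 239, depended on the settings. A −log10 q of 5 or more gave 157 and of 10 or more gave 84. It was 146 within the gene spans alone, and 103 and 56 when at least 2 or all 3 kainic acid lists were required. Without one of the kainic acid libraries it was 123 to 236, the lowest without replicate 2, the longest list. All 37 of 66 single-gene counts that moved by over 1.5 times fell. The number of loci with 1 dominant site, 6, was 3 with windows of 10 kb, 3 with the gene spans alone and 3 with a ratio of at least 3. In the first 2 of these settings the ratio could be formed at 3 loci only. The leading sites of Slc4a7 and Map3k21, 69.0 and 11.4 kb from their genes, fall outside both windows. That of Ankrd12, at 3.01 kb, falls outside the gene span. At these genes too few regions remained for a ratio in each list. With windows of 50 kb it was 5 and with the solved pileup 5, Slc4a7 falling out both times (ratios of 1.75 and 1.97). With −log10 q of at least 10 the ratio could be formed at 4 loci, and all 4 met it. It was 6 without any one of the kainic acid libraries.

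Kainic acid stayed above saline in log10 peak count, by 1.36 to 1.80 over the alternatives run and by 1.36 to 1.79 without one library. With the length covered in place of the count the log10 difference was 2.72. No p-value below 0.1 can arise from these groups, so stability cannot be read from it. Under the replicate block the value was 1.60, and exact sign-flip permutation gave p = 0.25, which 3 pairs cannot undercut. The labels do not say that a replicate number marks a shared day or litter. Saline lists 1 and 3 hold 7 and 2 peaks, so correlating list membership could not show a pairing, and the libraries were taken to share only a number.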

Other observations

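Neighbours of the 6 genes shared their windows unevenly. Among other protein-coding genes reaching into a window, Kcnk1, a potassium channel gene near Map3k21, overlapped 17 of the window's regions with a kainic acid peak. Of those, 4 were in all 3 lists. Cpe, which codes for carboxypeptidase E, overlapped 12 in the Klhl2 window, with 3 of them in all 3 lists. Twsg1 near Ankrd12, Nek10 near Slc4a7 and Pcnx2 near Map3k21 overlapped 5 each, with 2, 1 and 2 in all 3 lists. Ndufv2 and Ddx11 near Ankrd12 and Tmem192 near Klhl2 overlapped none. These counts cover only the part of a neighbour that lies in the window, and they are not scaled to its length.

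Spacing around the leading regions also differed. The nearest other region with a kainic acid peak lay 362 bp away at Nell2, 403 bp at Klhl2, 814 bp at Map3k21, 2581 bp at Slc4a7, 7855 bp at Atxn1 and 9591 bp at Ankrd12. Of the kainic acid lists, only that of replicate 2 had the nearest region at Nell2, Slc4a7 and Ankrd12. The nearest regions called in another kainic acid list lay 528, 9483 and 20288 bp away at those genes. Within 5 kb of the leading region Klhl2 had 5 others, Nell2 2, Slc4a7 and Map3k21 1 each, and Atxn1 and Ankrd12 none. Of these, the Klhl2 regions starting at 64837528, 64839537 and 64839898, 1 at Nell2 and that at Slc4a7 were in replicate 2 alone.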
